A study of Mus musculus with 4 samples.

Results

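A set of 6 mouse genes that specify, mark or guard primordial germ cells (Prdm1, Prdm14, Tfap2c, Ifitm1, Ifitm3 and Dnd1) was followed through the days on which germ cells of the fetal testis turn to the male fate. The genes were chosen by name, and 5 of the 6 had a probe that could be matched, among 21962 genes tested on the array. No probe was matched to Prdm14, which is not analysed here. The samples were whole gonads of wild-type male embryos of the mouse line MCH, taken on embryonic days 12.5, 13.5, 14.5 and 15.5 and named E12.5 to E15.5 here, with no treatment and no other genotype. Each stage had 2 one-colour arrays, described by the submitters as biological duplicates, which makes 8 arrays in all. Levels are log2 signals set relative to the 75th percentile of their own array, so a level of 0 lies at that percentile. Levels of different probes cannot be set against each other.

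Primordial germ cells arise in the early embryo when BMP signals, with WNT signals, switch on Prdm1, Prdm14 and Tfap2c in a few epiblast cells. Prdm1 (also called Blimp1) is a zinc finger repressor that shuts down the somatic programme, Prdm14 restores features of pluripotency, and Tfap2c (AP-2 gamma) is a transcription factor that acts downstream of Prdm1. Ifitm1 and Ifitm3 (Fragilis) encode interferon-inducible membrane proteins that mark cells competent to become germ cells. Dnd1 encodes an RNA-binding protein that keeps germ cells alive and, with NANOS2, acts on mRNAs in the fetal testis. All of these genes act first before the stages sampled here, and whole gonads hold germ cells beside Sertoli, Leydig, endothelial and blood cells. In such samples fewer cells of a type and less RNA per cell cannot be told apart.

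The Ifitm genes shown here lie in a cluster on chromosome 7, in the order Ifitm5, Ifitm2, Ifitm1, Ifitm3, Ifitm6, with the pseudogene Gm7514 and the long non-coding RNA gene Gm33504 between Ifitm1 and Ifitm3. The 100 bases before the RefSeq start (assembly GRCm38.p6) are shown for Prdm1 and for 3 Ifitm genes whose levels are compared below, because Ifitm1 and Ifitm3 were called and their neighbour Ifitm2 was not. Capitals mark the interferon-type core, GAAA followed by any 2 bases and GAAA, which interferon response elements and PRDM1 sites share.
Prdm1, chr10:44458749-44458848, - strand: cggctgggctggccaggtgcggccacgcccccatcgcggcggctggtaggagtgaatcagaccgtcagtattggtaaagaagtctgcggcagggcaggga
Ifitm1, chr7:140967976-140968075, + strand: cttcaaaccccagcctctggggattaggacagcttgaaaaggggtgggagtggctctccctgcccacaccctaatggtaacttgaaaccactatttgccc
Ifitm3, chr7:141010745-141010844, - strand: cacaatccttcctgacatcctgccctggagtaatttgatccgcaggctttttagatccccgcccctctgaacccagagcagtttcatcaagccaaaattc
Ifitm2, chr7:140955962-140956061, - strand: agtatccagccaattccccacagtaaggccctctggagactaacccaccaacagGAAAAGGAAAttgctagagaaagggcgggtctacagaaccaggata
For Ifitm3 the matches lay just after the start, in the first 30 transcribed bases, which are shown for that reason.
Ifitm3, chr7:141010715-141010744, - strand: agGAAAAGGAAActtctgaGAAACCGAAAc

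The promoter table held windows of 300 bases, 250 before and 50 after the start, for Prdm1, Ifitm1 and Ifitm3 among the genes studied, and for Ifitm2, Ifitm5, Ifitm6, Ifitm7 and Ifitm10. Both strands were searched. The interferon-type core matched 2 times in Ifitm3, at positions 3 to 12 and 20 to 29 counted from the start, and 1 time in Ifitm2, at positions -46 to -37. It matched in none of the other windows named. Of all 32851 promoter windows 3.44% held it, and so did 7 of the 12 interferon response genes with a window. Neither GCCNNNGGC, an AP-2 core held by 16.6% of all windows, nor GGTCTCTAA, a PRDM14 core held by 0.256%, matched in the windows of Prdm1 or any Ifitm gene named. A match is a run of letters and was not tested as a binding site.

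The arrays lay on 3 slides. Slide 1 held array 1 and slide 2 array 2 of E12.5 and E13.5, while the 4 arrays of E14.5 and E15.5 shared slide 3 and a separate scan session. E13.5 can thus be set against E12.5, and E15.5 against E14.5, within slides. In E14.5 against E13.5 and in E15.5 against E12.5, slide and stage cannot be told apart. Between 60.3% and 69.8% of probes were well above background on an array, and all 5 genes were so on 8 of 8 arrays.

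Across the whole span 4 of the 5 genes fell and Dnd1 rose. Ifitm1 and Ifitm3 had the largest fitted differences, then Prdm1 and Tfap2c; differences between genes were not tested. By limma with Benjamini-Hochberg adjustment, 5 of the 5 were called at an adjusted p under 0.05 in E15.5 against E12.5, where 35.3% of all genes tested were called, 17.2% as lower and 18% as higher. Over all stages the moderated F test called the same 5, where it called 31.5% of all genes. Without array 1 of E12.5, where Ifitm3 has no value, the counts were 4 in E15.5 against E12.5 and 3 over all stages.

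**Figure D1:**
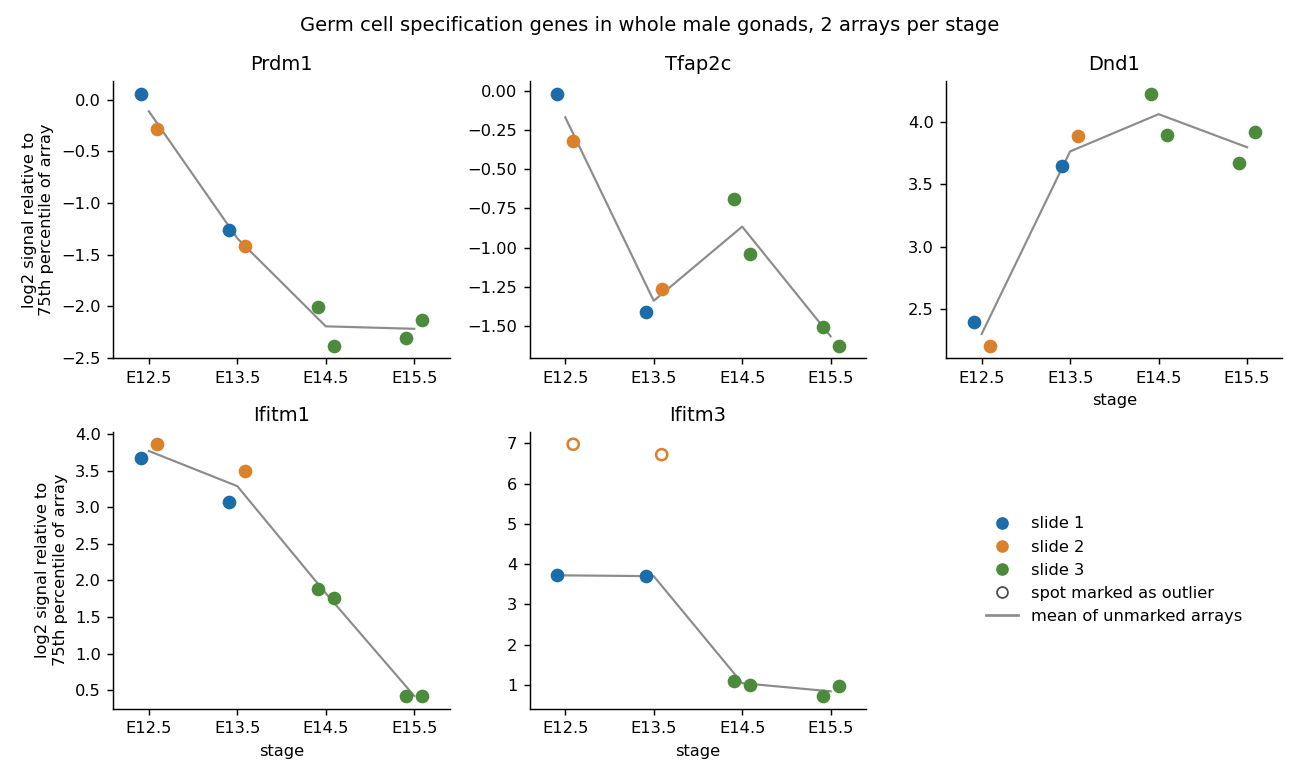
Level (log2 signal relative to the array's 75th percentile) of 5 germ cell specification genes by stage. Each point is 1 array, coloured by slide, open points are spots marked as outliers by the scanner software, and lines join means of unmarked arrays. Ifitm1 fell to 0.42 at E15.5, against 3.77 at E12.5, whereas Dnd1 reached 3.80 at E15.5, against 2.30 at E12.5; y axes differ between panels.

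Prdm1 had levels of 0.06 and -0.28 on the 2 arrays of E12.5, -1.26 and -1.42 at E13.5, -2.01 and -2.38 at E14.5, and -2.31 and -2.13 at E15.5. Every array of E13.5 lay below both arrays of E12.5 and above every array of the later stages, whereas E14.5 and E15.5 overlapped. Prdm1 averaged -2.22 ± 0.12 at E15.5 and -0.11 ± 0.24 at E12.5 (SD, n = 2 each), which was 4.31-fold lower (log2 difference -2.11 ± 0.22 SE, adjusted p = 0.000943 by limma). Of that, the first day held -1.23 on the log2 scale, and within slides it came to -1.33 on slide 1 and -1.14 on slide 2.

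Tfap2c was highest at E12.5 and varied after the first day. Its levels were -0.02 and -0.32 at E12.5, -1.41 and -1.27 at E13.5, -0.69 and -1.04 at E14.5, and -1.51 and -1.62 at E15.5. Both arrays of E14.5 lay above both arrays of E13.5 and of E15.5, and all lay below both arrays of E12.5. Neither step to or from E14.5 was called: the E14.5 minus E13.5 difference was 0.47 ± 0.21 (SE, adjusted p = 0.176) and the E15.5 minus E14.5 difference -0.70 ± 0.21 (adjusted p = 0.283, limma). Tfap2c averaged -1.57 ± 0.083 at E15.5 and -0.17 ± 0.21 at E12.5 (SD, n = 2 each) and was 2.63-fold lower (log2 difference -1.40 ± 0.21 SE, adjusted p = 0.00361 by limma).

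Ifitm1 had levels of 3.68 and 3.86 at E12.5, 3.08 and 3.50 at E13.5, 1.89 and 1.77 at E14.5, and 0.43 and 0.42 at E15.5. No array of a stage overlapped with an array of another stage, and each stage was lower than the one before. Ifitm1 averaged 0.42 ± 0.0058 at E15.5 and 3.77 ± 0.13 at E12.5 (SD, n = 2 each), 10.2-fold lower (log2 difference -3.35 ± 0.21 SE, adjusted p = 0.000158 by limma). It was the one gene of the 5 called within slide 3, in E15.5 against E14.5.

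Ifitm3 was measured by a single spot, which the scanner software marked as a non-uniform outlier on both arrays of slide 2. Its level was 3.72 on array 1 of E12.5, 3.70 on array 1 of E13.5, 1.09 and 0.99 at E14.5, and 0.72 and 0.96 at E15.5. The marked spots read 6.98 at E12.5 and 6.72 at E13.5, which put slide 2 above slide 1 by 3.26 and 3.02 on the log2 scale. Both readings were also marked as scaled up from a low-gain scan, unlike every other Ifitm3 value. On the array, 78 of 41174 probes stood at least as far apart between these slides at both stages, and 65 of the 78 were marked in the same way on both arrays of slide 2. The fit dropped the marked values, so Ifitm3 rests on 1 array at E12.5 and 1 at E13.5. It averaged 0.84 ± 0.17 at E15.5 (SD, n = 2), against 3.72 at E12.5 (n = 1), 7.36-fold lower (log2 difference -2.88 ± 0.26 SE, adjusted p = 0.00212 by limma). With the marked spots kept, the log2 difference was -4.51 (adjusted p = 0.0315, limma), and in E14.5 against E13.5 it was -4.17 and no longer called (adjusted p = 0.0735). The called drop lay between slide 1 and slide 3, and neither step within a slide was called.

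Dnd1 had levels of 2.39 and 2.21 at E12.5, 3.64 and 3.89 at E13.5, 4.23 and 3.90 at E14.5, and 3.67 and 3.92 at E15.5. The arrays of E12.5 lay below all others, and the 3 later stages overlapped. Dnd1 averaged 3.80 ± 0.18 at E15.5 and 2.30 ± 0.13 at E12.5 (SD, n = 2 each), 2.82-fold higher (log2 difference 1.50 ± 0.21 SE, adjusted p = 0.00294 by limma). Within slides its gain from the first day was 1.25 on slide 1 and 1.68 on slide 2. Its spot was marked as scaled up from a low-gain scan on every array of slide 3, and on none of slides 1 and 2. Comparisons of Dnd1 across these slides thus set scaled-up values against others, and the effect was not tested.

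Day by day, Prdm1, Tfap2c and Dnd1 were called in the first step, Ifitm1 and Ifitm3 in the second and Ifitm1 in the third. In E13.5 against E12.5, Dnd1 rose 2.76-fold (log2 difference 1.46 ± 0.21 SE, adjusted p = 0.0167) and Prdm1 and Tfap2c fell 2.35-fold and 2.25-fold (adjusted p = 0.0333 each, limma). These were 3 of 5 genes, where 4.08% of all genes were called, 2.8% as higher and 1.28% as lower. Ifitm1 had a difference of -0.48 ± 0.21 (adjusted p = 0.311) and Ifitm3 one of -0.02 ± 0.30 (adjusted p = 0.991). The calls of Prdm1, Tfap2c and Dnd1 were lost when any array of either stage was left out, and Dnd1 alone was kept without array 1 or array 2 of E15.5, although direction and size within slides were alike. In E14.5 against E13.5, where 13.1% of all genes were called, 6.62% as higher and 6.45% as lower, Ifitm3 fell 6.31-fold (log2 difference -2.66 ± 0.26 SE, adjusted p = 0.012) and Ifitm1 fell 2.76-fold (log2 difference -1.46 ± 0.21 SE, adjusted p = 0.0125, limma). Prdm1 had a difference of -0.85 ± 0.22 (adjusted p = 0.0515), which passed under 3 alternatives, and Dnd1 one of 0.30 ± 0.21 (adjusted p = 0.371). Ifitm3 again rests on 1 array of E13.5. Without array 1 of E14.5 neither gene was called, and without array 2 of E13.5 the count was 1. It was also 1 without array 1 of E12.5 or of E13.5, where Ifitm3 had no value and was not tested. In E15.5 against E14.5, 0.688% of all genes were called, 0.583% as higher and 0.105% as lower. All 5 fitted differences were negative there, but only Ifitm1 was called, 2.64-fold lower (log2 difference -1.40 ± 0.21 SE, adjusted p = 0.0493, limma). That call did not hold when any 1 of the 8 arrays was left out, and it held under 4 of 19 alternatives with a test.

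**Figure D2:**
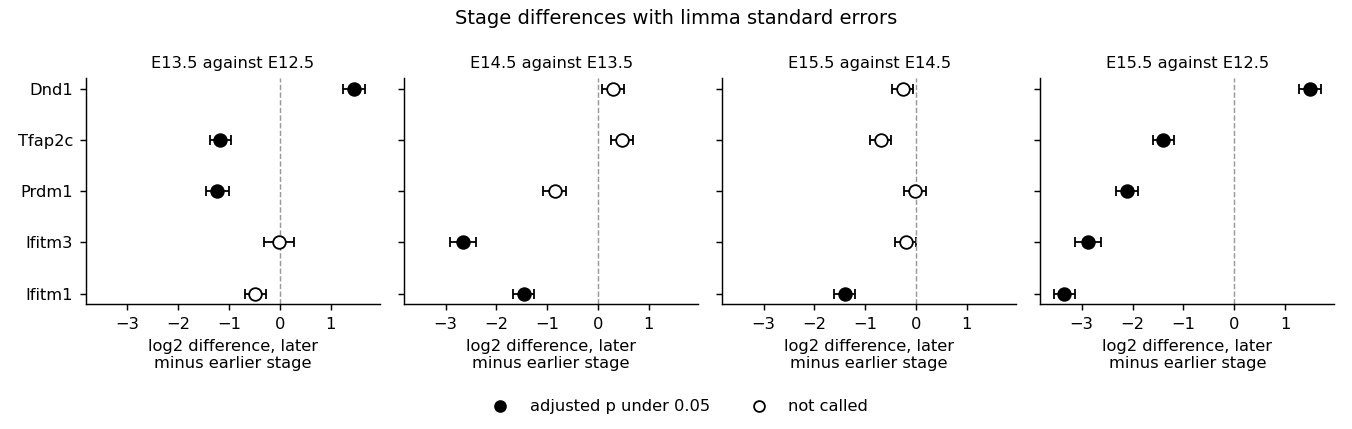
Log2 difference, later minus earlier stage, with limma standard errors, for 5 genes in 4 comparisons; filled points passed an adjusted p of 0.05. Prdm1, Tfap2c and Dnd1 moved on the first day, at -1.23, -1.17 and 1.46, and Ifitm3 between E13.5 and E14.5, at -2.66.

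Ifitm2, which lies beside Ifitm1 and encodes a close relative of Ifitm3, was called in none of the 4 comparisons and not over all stages (adjusted p = 0.464, limma's F test). Its levels were 2.68 and 2.57 at E12.5, 2.80 and 3.19 at E13.5, 2.90 and 3.18 at E14.5, and 2.73 and 3.1 at E15.5. Both E12.5 arrays lay just below all others and the 3 later stages overlapped. The E15.5 minus E12.5 difference was 0.29 ± 0.23 (SE, adjusted p = 0.366, limma). A second probe of Ifitm2 gave 0.29 as well. Ifitm5, known for a role in bone, had a difference of -0.85 ± 0.30 (adjusted p = 0.0643), with levels between -4.80 and -3.34. Ifitm6 was well above background on 5 of 8 arrays, Ifitm10 on 1 of 8, and no probe was matched to Ifitm7. Probes of such close relatives can cross-hybridise, which was not tested. The difference between the changes of Ifitm1 or Ifitm3 and of Ifitm2 was not tested.

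**Figure D3:**
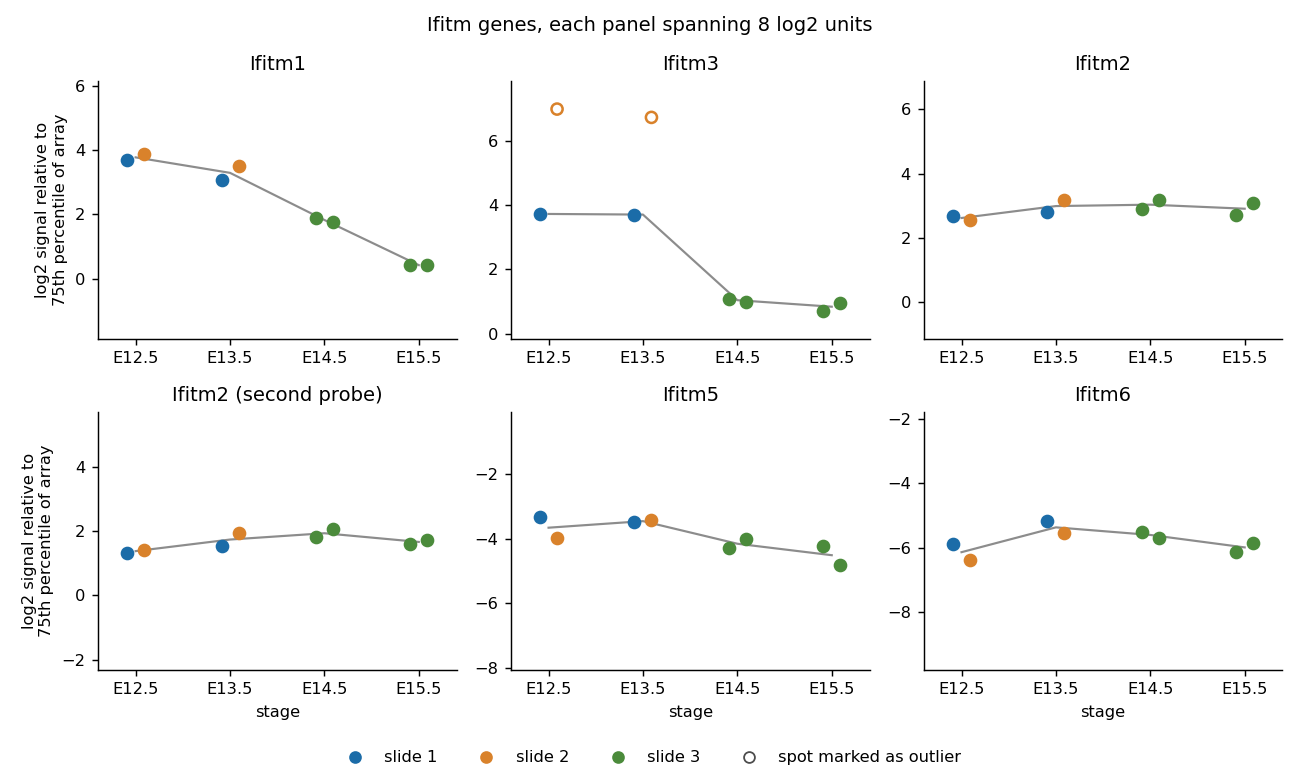
Level (log2 signal relative to the array's 75th percentile) by stage for 5 Ifitm genes, with 2 probes for Ifitm2; points are arrays coloured by slide, open points marked spots, and every y axis spans the same number of log2 units. Ifitm1 and Ifitm3 dropped by 3.35 and 2.88 between E12.5 and E15.5, while Ifitm2 stayed between 2.57 and 3.19 by its brighter probe and between 1.33 and 2.05 by the second.

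Genes that act with these factors in early germ cells mostly fell by the end. Of 10 tested, 0 rose, 6 fell and 4 were not called in E15.5 against E12.5, with a list median of -0.94 against -0.05 for all genes. The shares of all genes called there were 18% as higher and 17.2% as lower. Dppa3 (Stella), a germ cell and oocyte factor that guards DNA methylation, had a log2 difference of -4.38 (adjusted p = 0.000108). Sox2, a pluripotency factor, had -5.61 (adjusted p = 0.000126) and was above background on 1 of the 2 E15.5 arrays. Nanos3, an RNA-binding factor that keeps migrating germ cells alive, had -1.93 (adjusted p = 0.00155), Prmt5, an arginine methyltransferase that partners Prdm1, had -1.19 (adjusted p = 0.0148), and its cofactor Wdr77 had -0.72 (adjusted p = 0.0385). By day, 5 of the 10 fell in E14.5 against E13.5 and 3 in E15.5 against E14.5, with 0 higher in both. Of all genes, 6.45% and 0.105% were called as lower in these comparisons, and 6.62% and 0.583% as higher. Pou5f1 (Oct4) had -1.06 (adjusted p = 0.0206, limma). Cbfa2t2, a corepressor bound by Prdm14, was not called at -0.36 (adjusted p = 0.309), and neither was Lin28a at -0.82 (adjusted p = 0.0572). On the first day, however, Nanos3 rose (2.12, adjusted p = 0.00648) and Kit, the receptor germ cells need to survive, fell (-1.57, adjusted p = 0.0171, limma). Kit did not stay low: its levels of 0.54 and 0.73 at E15.5 overlapped with 0.87 and 0.43 at E12.5.

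Of 13 genes of BMP and WNT induction, 2 rose, 6 fell and 5 were not called in E15.5 against E12.5, with a list median of -0.20. Among all genes tested, 18% were called as higher and 17.2% as lower there. At E15.5, Bmp8b, a BMP ligand, showed a level at least 5.42-fold higher, since it was not well above background on either E12.5 array. T (Brachyury), a mesoderm factor downstream of WNT, rose by 1.17 (adjusted p = 0.0212, limma). The ligand Wnt3 had -2.75 (adjusted p = 0.000216), the receptor Bmpr2 -3.41 (adjusted p = 0.00797), the ligand Bmp4 -1.17 (adjusted p = 0.0362) and its signal transducer Smad1 -1.10 (adjusted p = 0.0327, limma). Of 4 somatic genes that are repressed at specification, only Evx1 was called, at least 2.0-fold lower at E15.5, while Myc had 0.37 (adjusted p = 0.124, limma). Evx1 was well above background at E12.5 alone, so it was kept for testing only through the stage where it was high.

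A list of 14 genes held partners of Dnd1, subunits of the CCR4-NOT deadenylase and mRNAs that DND1 acts on, such as Cdkn1b. Of these 14, 0 rose and 3 fell in E15.5 against E12.5, with a list median of -0.02. Of all genes tested, 18% were called as higher and 17.2% as lower in that comparison. Nanos2, which recruits the CCR4-NOT deadenylase in male germ cells and partners DND1, rose and then fell. Its difference was 3.14 in E13.5 against E12.5 (adjusted p = 0.0117), -2.57 in E14.5 against E13.5 (adjusted p = 0.0156) and -3.94 in E15.5 against E14.5 (adjusted p = 0.0172, limma). It was well above background on 1 of the 2 E15.5 arrays. Dnd1 was not called in either later step. Cdkn1b, a cell cycle inhibitor whose mRNA DND1 is known to protect from miRNAs in human cells, had -2.29 in E15.5 against E12.5 (adjusted p = 0.00548), with 1 of 2 E15.5 arrays well above background, and Nanos3 fell as given above. Subunits of CCR4-NOT were not called, with Cnot2 at 0.83 (adjusted p = 0.109) and Cnot10 at -0.71 (adjusted p = 0.131).

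Relatives of the transcription factors were called in both directions. In E15.5 against E12.5, 18% of all genes were called as higher and 17.2% as lower, and the counts below were not tested against these shares. Among 5 other Prdm genes tested, Prdm6 and Prdm8 rose (1.64, adjusted p = 0.00207, and 1.73, adjusted p = 0.0465) and Prdm4 fell (-0.64, adjusted p = 0.0396), in E15.5 against E12.5 (limma). Among 3 other Tfap2 genes, Tfap2a fell (-0.95, adjusted p = 0.0318). Of 14 interferon response genes, 7 rose and 1 fell, with a list median of 0.92. Usp18, which damps interferon signalling, had 3.98 (adjusted p = 0.000611), Oas1a 2.61 (adjusted p = 0.000981), Oasl2 2.54 (adjusted p = 0.00299) and Ifit3 1.39 (adjusted p = 0.0134), while the factor Irf1 fell by 1.47 (adjusted p = 0.00354, limma). For Ifit1, counted among the 7, the E15.5 level was at least 1.60-fold higher. Ifit1 was well above background at E15.5 alone, so it was kept for testing only through the stage where it was high. By day, 2 of the 14 rose in E13.5 against E12.5, 2 fell in E14.5 against E13.5 and 2 rose in E15.5 against E14.5. Of all genes, 2.8%, 6.45% and 0.583% were called in these directions in the same comparisons. Over the whole span Ifitm1 and Ifitm3 went opposite to most called genes of that list, which is a description and was not tested as a difference.

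**Figure D4:**
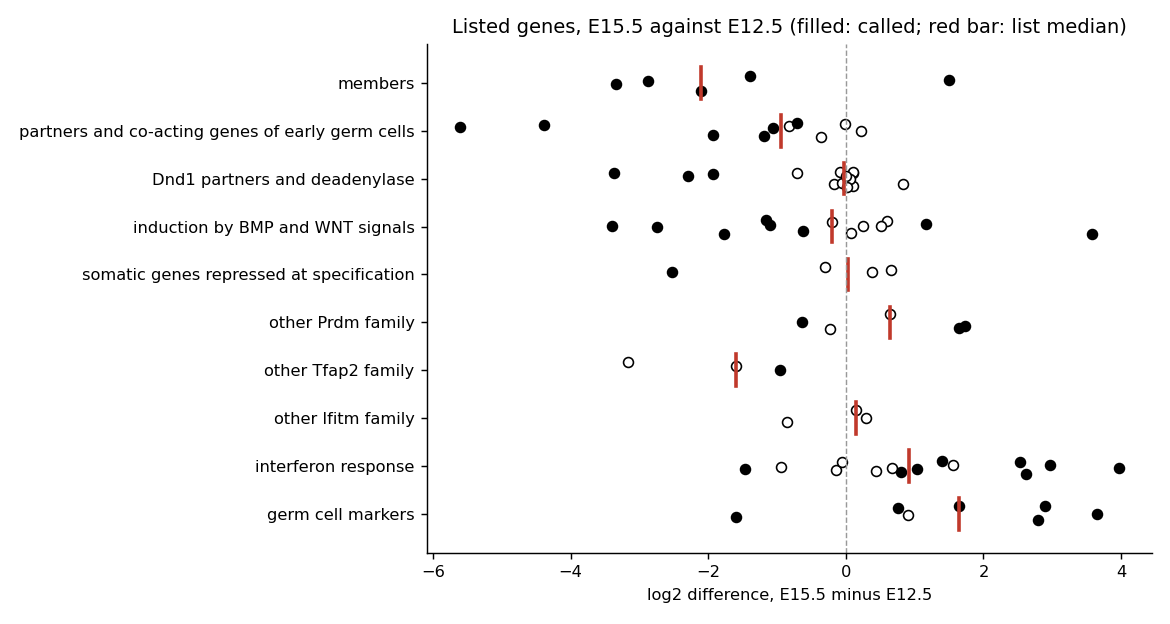
Log2 difference, E15.5 minus E12.5, of each tested gene of 10 lists; filled points passed an adjusted p of 0.05 and red bars are list medians. The 5 specification genes have a median of -2.11, their early germ cell partners -0.94 and interferon response genes 0.92, against -0.05 for all genes.

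Markers of the cell types moved over the same days. Summed on the linear scale relative to the 75th percentile, 6 of 10 germ cell markers came to 17.5 to 19.8 at E12.5, 45.6 to 46.6 at E13.5, 64.5 to 86.8 at E14.5 and 67.9 to 87.0 at E15.5. Ddx4, a seventh with a probe, was left out of the sum because its only spot was marked as an outlier on array 2 of E13.5. At E15.5 the sum was mostly that of Mael, at levels of 5.11 and 5.39, and Tdrd1, at 4.29 and 4.95. At E12.5 Mael had 2.27 and 2.45 and Tdrd1 0.86 and 1.08, and the brightest marker summed was Dazl, at 3.37 and 2.93. Dazl had 1.52 and 1.59 at E15.5. The rise of the sum thus rests mainly on Mael and Tdrd1, and no sum was formed without them. In E15.5 against E12.5, 5 of the 7 tested rose and 1, Dazl, fell. The counts of calls given here stand beside 18% of all genes called as higher and 17.2% as lower. Endothelial markers, whose cells also express Ifitm genes, came to 17.8 to 19.2 at E15.5 and 27.8 to 29.5 at E12.5 for 10 of 10 markers, of which 3 fell, 0 rose and 7 were not called (list median -0.24). Without Kdr (-2.58) and Cldn5 (-1.85), left out after their values were seen, the other 8 came to 15.3 to 16.9 at E15.5 and 17.8 to 19.4 at E12.5. Erythroid markers came to 8.19 to 10.7 at E15.5 and 133.3 to 150.6 at E12.5 for 7 of 8 markers, of which 5 fell and 1, Alas2, rose. Without the embryonic globins Hbb-y, Hbb-bh1 and Hba-x, left out likewise, the other 4 came to 7.22 to 8.95 at E15.5 and 6.15 to 7.21 at E12.5. Mesonephros markers (6 of 6) came to 1.14 to 1.23 at E15.5 and 3.91 to 4.29 at E12.5, with Pax2 not above background at E15.5 and Pax8 not at E12.5. Leydig markers (6 of 6) came to 131.3 to 154.8 at E15.5 and 22.9 to 29.8 at E12.5, with Lhcgr not above background at E12.5. Sertoli markers (9 of 9) came to 58.6 to 74.3 at E15.5 and 84.7 to 88.5 at E12.5. Macrophage and leukocyte markers (8 of 10) came to 7.09 to 9.6 at E15.5 and 3.01 to 3.54 at E12.5. The part of these shifts in the results above was not tested.

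The 3 genes nearest to each gene in pattern were found by the root mean square difference of levels centred on each gene's mean, over 8 arrays (6 for Ifitm3), which share slides and stages. Candidates were the 11617 genes (11618 for Ifitm3) with a RefSeq name, a value on every array and a signal well above background on all 8. Genes below background on any array were thus left out. Acsm3 (0.14), Pipox (0.17) and Lrp11 (0.17) lay nearest to Prdm1. Vcam1 (0.22), Syce2 (0.22) and Ap1s3 (0.24) lay nearest to Tfap2c, and Bach1 (0.26), Hmga2 (0.26) and Cpsf4l (0.27) to Ifitm1. Nkx2-4 (0.13), Olfr462 (0.17) and Olfr43 (0.17) lay nearest to Ifitm3, and Paqr9 (0.14), Car5b (0.15) and Slc38a9 (0.18) to Dnd1. The match to Ifitm3 leaves out slide 2, where Nkx2-4, Olfr462 and Olfr43 all read lower than on slide 1 at E12.5 and E13.5. At E12.5 Olfr43 had -3.72 on slide 2 and -1.52 on slide 1, and Nkx2-4 had -3.14 and -1.73. In these matches slide and stage cannot be told apart.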

How the data were processed

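Per the labels' protocols, RNA of whole gonads was labelled with Cy3 and hybridised to one-colour Agilent arrays. The deposited scanner files give the linear intensity of every spot. Per the file headers, Agilent Feature Extraction (9.1.3.1 on slides 1 and 2, 9.5.3.1 on slide 3; the submitters' processing notes name 9.5) had subtracted the background, with no scaling between arrays. The authors also deposited a table with 1 ratio per probe and stage; its scale and centring are unknown beyond column medians of 1.14, 1.00, 0.898 and 0.859 from E12.5 to E15.5, so it served for directions only. Its columns correlated across probes with centred scanner means at 0.987 to 0.993.

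Each array held 45018 spots, 43379 of them not controls, making up 41174 probes. The spots of each probe were averaged without outlier-marked spots, and a probe with no other spot on an array was set missing there. Levels are log2 processed signals less the 75th percentile of the non-control spots of that array. A probe was kept if both arrays of any 1 stage had it well above background (28188). Accessions in the files were matched without versions to RefSeq (GRCm38.p6), which named 22951 probes. With 1 probe per gene, that of highest mean, 21962 genes were fitted with a mean per stage over all 8 arrays, with limma 3.58.1 (lmFit, eBayes; R 4.3.3) and Benjamini-Hochberg adjustment over all genes. The scripts were tested on simulated data. The number of arrays limits the precision, with 4 residual degrees of freedom and 2.68 from the moderated variance, and p-values measure only the spread between duplicates.

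Where neither array of the dimmer stage had a gene well above background, the fold is given as "at least N-fold", with each dim array counted at its own value or at the dimmest probe that was well above background there, whichever was higher. No p-value is given beside such a fold, since the test used the readings that were not well above background. The genes and lists were chosen with earlier results of these data known. Per comparison and list, up to 6 called genes and up to 2 others are named, by size of change; a gene that this rule would name is not reported here. Alternatives changed the scaling, background, filter, probe rule, arrays and slide block. Normexp was run on median spot signals in place of mean ones.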

Additional observations from a re-analysis of the deposited data

How the results depend on the processing

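Of 360 values of the 5 genes under alternatives with a test, 303 kept their direction and side of the threshold, 52 lost the call, 3 gained one and 2 turned. The 303 include values not called in the main fit. Of the 52, 1 was in E15.5 against E12.5, and the others were day-by-day calls. In E13.5 against E12.5, the call was lost in 8 of 19 alternatives for Dnd1, 10 of 19 for Prdm1 and 11 of 19 for Tfap2c. In E14.5 against E13.5 it was lost in 4 of 18 for Ifitm1 and 3 of 16 for Ifitm3, and in E15.5 against E14.5 in 15 of 19 for Ifitm1. Both turned values are of Prdm1 in E15.5 against E14.5, which was not called: its difference of -0.02 became 0.16 with array 1 of E14.5 left out and 0.063 with array 1 of E15.5 left out, and -0.21 at the lowest with 1 array left out. The authors' deposited table, which describes the same samples and is no independent check, had the same direction in 20 of 20 values. The number of genes called in E13.5 against E12.5 was 3, but 0 under normexp background correction, with no filter, with only the arrays compared and without slide 2, and 0 to 3 with 1 array left out. In E14.5 against E13.5 it was 2, and 3 with Prdm1 added under quantile scaling (its adjusted p 0.0457), a filter for probes above background on all arrays (0.0384) and normexp with extreme background values replaced (0.0168), but 0 under normexp, 1 with outlier spots kept, 1 without slide 2, and 0 to 2 with 1 array left out. In E15.5 against E14.5 it was 1, but 0 under normexp, median scaling, no filter, a filter for probes above background on all arrays, only the arrays compared, outlier spots kept and without slide 2, and 0 to 0 with 1 array left out. In E15.5 against E12.5 it was 5 and ranged from 4 to 5, with Tfap2c at an adjusted p of 0.0615 under normexp. Over all stages it was 5, but 3 under normexp and 3 without slide 2, and 3 to 5 with 1 array left out. The causes were not tested. Of the counts of called genes per list and direction, 87 of 247 alternative values moved by over 1.5 times in E13.5 against E12.5, 92 of 180 in E14.5 against E13.5, 30 of 76 in E15.5 against E14.5 and 99 of 360 in E15.5 against E12.5. Over all genes, calls in E13.5 against E12.5 were 897 and ranged from 2 to 1006, in E14.5 against E13.5 2869 and 0 to 4307, in E15.5 against E14.5 151 and 0 to 262, and in E15.5 against E12.5 7748 and 1198 to 9375. Keeping outlier spots, leaving out slide 2 and replacing extreme background values before normexp were chosen after seeing the data. With the slide as a replicate block, which pairs arrays of E12.5 and E13.5, 3 genes were called in E13.5 against E12.5, Prdm1 at an adjusted p of 0.0325, Tfap2c at 0.0423 and Dnd1 at 0.0244 (limma), and Ifitm3 had no value. Signal over background limits Ifitm6 and Ifitm10.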
